A study of Homo sapiens with 2 samples.

Results

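MYC, MYCL, MAX, MXD1, MXD3, MXD4, MXI1, MNT, MLX and MGA form the MYC, MAX and MXD network of transcription factors, and they were described in control and FZR1 ko breast cancer cells treated with cisplatin. The network was picked by gene name, and it was chosen from measured values, because MYC had been seen to be higher in FZR1 ko while other immediate early genes were lower. The same contrast therefore only describes the members. All 10 members had a value, among 23033 genes with a value in the table. RNAseq was performed on total RNA of 2 cultures. The labels name them as T-47D, which is a breast cancer line of luminal type. One was wild type (control) and the other carried an FZR1 knockout (FZR1 ko), and both had received cisplatin, a platinum drug that crosslinks DNA, at 2 µg/ml. FZR1 encodes an activator of the anaphase-promoting complex, the ubiquitin ligase that directs exit from mitosis. The FZR1 ko line was made with lentiviral CRISPR/Cas9 and single cell screening, so it may carry the traits of 1 clone. The duration of treatment is not given for this experiment, and cells without cisplatin were not analysed here. Each condition had 1 library, so no difference below has a replicate check, the values were compared without a test.

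MYC drives cell growth. It binds DNA only as a pair with MAX, and the pair recognises the E-box, written CACGTG, in the promoters of genes for ribosome assembly, translation, nucleotide synthesis and the cell cycle. The MXD proteins (MXD1, MXI1, MXD3 and MXD4) and MNT also pair with MAX, occupy the same sites and recruit the SIN3-HDAC corepressor, so they oppose MYC. MGA pairs with MAX in a Polycomb complex that keeps germline genes silent. MLX stands beside MAX: it pairs with the glucose-sensing Mondo proteins and with some of the MXD proteins and MNT. MYC mRNA is short-lived and MYC is one of the immediate early genes, while MXD1 is known for its rise when cells stop dividing and differentiate. MYC is often amplified in breast cancer.

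The values were FPKM, which counts fragments per kilobase of transcript and per 1000000 mapped fragments. Levels were set side by side on this scale, between genes and between libraries. The scale is relative to the other RNA of a library, and it left a trend with transcript length, described below. Depth is unknown, because numbers of reads cannot be read from FPKM. The log2 ratio of a gene divides its level in FZR1 ko by that in control after adding 1 FPKM to each, and it is positive where FZR1 ko was higher, which understates the change of low genes. A gene was kept if either library held 1 FPKM or more of it, which 13554 genes did, and their median was -0.0048. Of the network 9 genes passed this filter and MYCL did not. FZR1 itself had 12.28 FPKM in control against 10.1 FPKM in FZR1 ko, and since small insertions or deletions can leave an mRNA in place, this does not check the label.

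MYC was the most abundant member in both libraries and was higher in FZR1 ko. The gene (Entrez gene 4609) lies on chromosome 8 from 127735434 to 127742951 on the plus strand of hg38. It had 54.8 FPKM in control against 93.81 FPKM in FZR1 ko, a 1.71-fold difference and a log2 ratio of 0.76. In control 12.9% of the genes kept had a higher FPKM than MYC, and in FZR1 ko 6.52% did. For its log2 ratio, 11.9% of the genes kept lay above MYC. The difference passed a 1.5-fold threshold, which 18.0% of all genes kept passed in the same direction, and it stayed under 2-fold. In RNA of whole cultures, fewer cells of a type and less RNA per cell cannot be told apart. MYCL, the paralog on chromosome 1 (39895428 to 39901917, minus strand), was nearly silent, with 0.64 FPKM in control against 0.23 FPKM in FZR1 ko. Both libraries therefore held MYC mRNA with very little mRNA of this paralog.

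MAX, the obligate partner, and MLX, its counterpart, changed little in level. MAX (chromosome 14, 65006101 to 65102695, minus strand) had 23.74 FPKM in control against 20.15 FPKM in FZR1 ko, with a log2 ratio of -0.23. It ranked 2 of the 10 members in control and 4 in FZR1 ko. MLX (chromosome 17, 42567100 to 42573203, plus strand) had 21.93 FPKM in control against 22.98 FPKM in FZR1 ko, with a log2 ratio of 0.06. MLX ranked 3 in both libraries. Both log2 ratios lay within the middle 50% of all genes kept, which ran from -0.42 to 0.43.

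**Figure D1:**
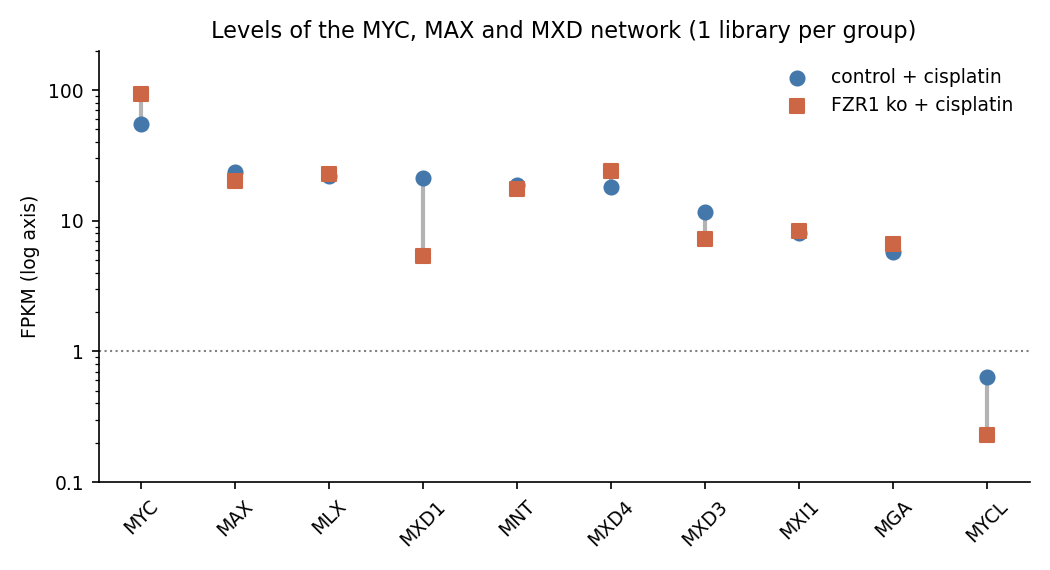
FPKM of each network gene (log axis) in control (circles) and FZR1 ko (squares), both with cisplatin and 1 library each, ordered by the control level; a grey line joins the pair and the dotted line marks 1 FPKM. MYC is highest in both libraries, MXD1 shows the longest drop, from 21.25 to 5.42 FPKM, and MYCL lies under 1 FPKM.

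The MXD genes, all antagonists of MYC, did not move together. MXD1 (chromosome 2, 69915109 to 69942945, plus strand) had 21.25 FPKM in control against 5.42 FPKM in FZR1 ko. This was 3.92-fold lower in FZR1 ko, with a log2 ratio of -1.79, and 1.01% of all genes kept had a lower ratio. MXD1 stood at rank 4 of the network in control and at rank 9, next to last, in FZR1 ko. MXD3 (chromosome 5, 177305499 to 177312752, minus strand), which is known from proliferating cells, had 11.61 FPKM in control against 7.23 FPKM in FZR1 ko. It was 1.61-fold lower, with a log2 ratio of -0.62, just past the 1.5-fold threshold. MXD4 (chromosome 4, 2247432 to 2262109, minus strand) differed in the opposite direction, with 18.01 FPKM in control against 23.84 FPKM in FZR1 ko and a log2 ratio of 0.39. This was 1.32-fold higher and under the 1.5-fold threshold. MXI1, also called MXD2 (chromosome 10, 110207605 to 110287365, plus strand), had 8.06 and 8.35 FPKM in control and FZR1 ko.

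MNT and MGA, the antagonists outside the MXD family, differed less than MXD1 and MXD3. MNT (chromosome 17, 2384073 to 2401060, minus strand), which is expressed in most cells whether they divide or not, had 18.89 FPKM in control against 17.5 FPKM in FZR1 ko, with a log2 ratio of -0.10. MGA (chromosome 15, 41621224 to 41769940, plus strand) is the largest gene of the network, with a canonical transcript of 12193 bases, and had the lowest level of the antagonists in control. It had 5.75 FPKM in control against 6.67 FPKM in FZR1 ko, with a log2 ratio of 0.18.

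Of the 9 members kept, 1 was at least 1.5-fold higher in FZR1 ko (MYC) and 2 were at least 1.5-fold lower (MXD1 and MXD3), beside 18.0% and 17.6% of all genes kept. At 2-fold, 0 members were higher, where 6.78% of all genes were, and 1 was lower (MXD1), where 6.72% were. The median log2 ratio of the members was 0.05, and 5 were above 0 and 4 below. As the contrast was used to choose the network, these counts are a description of it. The count of 2 lower members was 1 with a pseudocount of 5 FPKM, where the log2 ratio of MXD3 was -0.44.

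The promoters of MXD1, MXD3 and MXD4 are shown because these antagonists had log2 ratios of different sign and the largest in size. That of MXI1, whose levels were close to each other, is not shown. The 250 bases before the RefSeq start (assembly GRCh38.p14, the hg38 build) are printed 5′ to 3′ on the strand of the gene, with the E-box CACGTG in capitals. They are chr2:69914859-69915108 (plus strand) for MXD1, chr5:177312753-177313002 (minus strand) for MXD3 and chr4:2262110-2262359 (minus strand) for MXD4. For MNT (chr17:2401221-2401280, minus strand) and MLX (chr17:42567023-42567082, plus strand), the other members searched that hold a CACGTG in this window, 60 bases around it are shown.
MXD1: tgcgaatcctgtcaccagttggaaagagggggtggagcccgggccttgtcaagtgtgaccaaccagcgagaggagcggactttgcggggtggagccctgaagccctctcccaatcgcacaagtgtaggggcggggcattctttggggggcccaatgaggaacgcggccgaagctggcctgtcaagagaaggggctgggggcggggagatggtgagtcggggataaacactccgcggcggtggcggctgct
MXD3: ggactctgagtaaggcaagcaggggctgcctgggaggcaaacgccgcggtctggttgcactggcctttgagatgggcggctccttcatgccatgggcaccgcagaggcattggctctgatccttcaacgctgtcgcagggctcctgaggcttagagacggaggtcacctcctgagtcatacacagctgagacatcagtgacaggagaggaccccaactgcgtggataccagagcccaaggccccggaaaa
MXD4: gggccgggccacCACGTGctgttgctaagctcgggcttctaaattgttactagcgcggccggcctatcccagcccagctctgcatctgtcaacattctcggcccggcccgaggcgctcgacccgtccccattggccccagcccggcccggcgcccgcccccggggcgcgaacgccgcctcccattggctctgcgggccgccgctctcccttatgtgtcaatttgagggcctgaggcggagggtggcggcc
MNT: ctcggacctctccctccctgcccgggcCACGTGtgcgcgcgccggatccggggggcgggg
MLX: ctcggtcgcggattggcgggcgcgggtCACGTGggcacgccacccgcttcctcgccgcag

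A promoter sequence, from 250 bases before to 50 bases after a RefSeq start, was matched to 9 of the 10 members, all but MYC, with 14 promoters in all, and MYC was not searched. CACGTG, which reads the same on both strands, was found in 3 of these 9 genes, MXD4, MNT and MLX. It was found in 7.26% of all 35116 promoters of the same length, and 12.8% of the protein-coding genes kept had it. Counted from the start, the first base of the match lies at -238 in MXD4, at -193 in MNT and at -50 in MLX. CACGCG, a weaker E-box, was searched on both strands and was found in MXD3, 9 bases after the start, in 1 of 3 promoters of MXI1 and in 1 of 3 promoters of MGA, and 11.4% of all promoters and 22.5% of the protein-coding genes kept had it. Of 4 E2F motifs searched (TTTCCCGC, TTTGGCGC, TTTCGCGC and TTTGCCGC), TTTGGCGC was found in 1 promoter of MGA, beside 0.652% of all promoters, and the others in none of the 9 members searched. Their shares of all promoters were 1.63%, 0.515% and 0.607%. MXD1, the member kept with the largest log2 ratio in size, held none of these motifs in this window.

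Because FPKM is per length, levels of the members were set against each other in each library. These ratios were not corrected for the trend of the log2 ratio with transcript length, described below. With the trend of length and GC content removed, the log2 ratio of MAX was -0.10 and that of MYC 0.78. MYC stood at 2.31 times the level of MAX in control and at 4.66 times in FZR1 ko, so this ratio was 2.02-fold higher. The 6 antagonists (MXD1, MXD3, MXD4, MXI1, MNT and MGA) summed to 83.57 FPKM in control against 69.01 FPKM in FZR1 ko. MYC was below this sum in control, at 0.656 times, and above it in FZR1 ko, at 1.36 times. Without MXD1 the remaining antagonists summed to 62.32 and 63.59 FPKM, and MYC stood at 0.879 and 1.48 times. MXD1 gave 25.4% of the antagonist sum in control and 7.85% in FZR1 ko, while the share of MXD4 went from 21.6% to 34.5% and that of MNT from 22.6% to 25.4%. The sum of the antagonists relative to MAX was nearly the same, 3.52 in control and 3.42 in FZR1 ko. These are levels of mRNA, and the proteins were not measured.

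The log2 ratio also moved with transcript length. Among protein-coding genes kept, the median was -0.07 for canonical GENCODE transcripts of up to 1000 bases and 0.31 for those over 8000 bases. In the shortest class 9.09% of the genes were at least 1.5-fold higher in FZR1 ko and 23.1% were lower. In the longest class 31.7% were higher and 8.65% lower. MGA, at 12193 bases, lay below the median of its length class, and with the trend of length and GC content removed its log2 ratio was -0.16. MXD3 has the shortest transcript of the network, 1067 bases. MYC, with 3721 bases, lay in a class with a median of 0.0047, and its log2 ratio with the trend removed was 0.78. MXD1, with 5549 bases, had -1.87 with the trend removed. For MXD3 the value was then -0.60, and for MXD4 it was 0.14 in place of 0.39.

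The labelled cell type was checked against its markers. Of 10 luminal breast markers, 5 were under 1 FPKM in both libraries, among them ESR1, the estrogen receptor, GATA3 and E-cadherin (CDH1), which goes against the label of T-47D. The luminal list summed to 1402 FPKM in control against 1763 FPKM in FZR1 ko, mostly from KRT8 and KRT18. Of 10 basal or mesenchymal markers, 3 were under 1 FPKM in both libraries (TP63, KRT5 and KRT14). This list summed to 437 and 381 FPKM, mostly from vimentin. EPCAM had 3.9 and 11.48 FPKM and N-cadherin (CDH2) 2.97 and 15.31 FPKM in control and FZR1 ko. Other markers went the opposite way in each list: KRT17 had 102.78 and 55.81 FPKM, SNAI2 7.05 and 3.86 FPKM and TFF1 9.8 and 7.52 FPKM. Of 6 markers of fibroblasts, immune and endothelial cells, 4 were under 1 FPKM in both libraries, and CD68 gave most of their sum of 51.6 and 70.42 FPKM. The part of these differences in those of the network was not tested.

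Genes that MYC-MAX is known to activate went in both directions. Of 33 growth and metabolism genes 31 were kept, and their median log2 ratio was -0.03, with 14 above 0 and 17 below. Of these, 5 were at least 1.5-fold higher in FZR1 ko, a share near the background of 18.0% of all genes kept, and 1 was lower, a smaller share than the background of 17.6%. SLC7A5, an amino acid transporter with near-identical pseudogene copies that could share its reads, had 128 FPKM in control against 265 FPKM in FZR1 ko. SHMT1, an enzyme of one-carbon metabolism, had 8.49 FPKM in control against 18.47 FPKM in FZR1 ko. CUL1, the scaffold of SCF ubiquitin ligases, had 11.63 and 21.08 FPKM. At the other end, EIF2S1, a translation initiation factor, had 53.7 FPKM in control against 34.56 FPKM in FZR1 ko. E2F2, a cell cycle transcription factor, had 19.53 and 13.12 FPKM. ODC1, the rate-limiting enzyme of polyamine synthesis and a textbook MYC target, had 254 FPKM in control against 181 FPKM in FZR1 ko, with a log2 ratio of -0.48. Hence ODC1 was lower in the library where MYC was higher.

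The nucleolar and ribosome assembly genes also went in both directions. All 37 were kept, with a median log2 ratio of -0.01, 18 above 0 and 19 below (0.03 with the length and GC trend removed), and 7 were at least 1.5-fold higher and 2 lower. The first share is near the 18.0% of all genes kept and the second is below their 17.6%. POLR1B, a core subunit of RNA polymerase I, had 10.95 FPKM in control against 27.11 FPKM in FZR1 ko. UTP20, which acts in small subunit assembly and has a transcript of 9031 bases, had 5.71 and 12.75 FPKM. MYBBP1A, a nucleolar protein, had 20.13 and 38.31 FPKM. WDR74, which acts in large subunit assembly, overlaps a small nuclear RNA gene and is uncertain for that reason, and has a transcript of 1219 bases, had 189 FPKM in control against 78.37 FPKM in FZR1 ko. NIP7, another assembly factor, had 61.92 and 28.96 FPKM. MRTO4, which acts in large subunit assembly, had 83.77 and 56.61 FPKM. Thus the list held differences in both directions around a median close to that of all genes.

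CACGTG was more frequent in the promoters of both activated lists than among all genes. It was found in 16 of 29 growth and metabolism genes with a promoter sequence (55.2%) and in 13 of 29 nucleolar genes (44.8%). Among the protein-coding genes kept 12.8% had it. The lists were written from general knowledge of genes that MYC-MAX activates, so these shares describe the lists and not the libraries. Within the first list the genes kept with the motif had a median log2 ratio of 0.04 (15 genes) and those without it -0.03 (13 genes). Within the second these were -0.04 (13 genes) and 0.02 (16 genes). In the first list 13.3% of the genes with the motif were at least 1.5-fold higher and 0 lower, against 23.1% and 7.69% of those without it. In the second these shares were 30.8% and 0 with the motif against 12.5% and 12.5% without it, all from few genes.

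Genes that MYC is known to repress were mostly lower in FZR1 ko. Of 12 genes 10 were kept, with a median log2 ratio of -0.97. Of these, 7 were at least 1.5-fold lower and 2 at least 1.5-fold higher, beside 17.6% and 18.0% of all genes kept. The list was chosen with earlier results of these data known, so these counts are a description. CDKN1A, the inhibitor p21 of cyclin-dependent kinases, had 319 FPKM in control against 77.24 FPKM in FZR1 ko, with a log2 ratio of -2.03. CDKN2B, the inhibitor p15, had 55.22 and 13.33 FPKM, and an antisense RNA overlaps this gene, so its value is uncertain where reads were counted without strand. GADD45A, a growth arrest gene, had 114 FPKM in control against 47.85 FPKM in FZR1 ko. CDKN1A and GADD45A are textbook p53 targets as well, so they do not stand for MYC alone. DKK1, a secreted inhibitor of Wnt signalling, differed in the opposite direction, with 14.74 and 32.68 FPKM. PDGFRB, a growth factor receptor, was low, at 0.44 FPKM in control against 1.58 FPKM in FZR1 ko, and passed the filter only through FZR1 ko. CLU, a chaperone, had 64.16 and 70.56 FPKM.

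The targets of MLX with its Mondo partners spread to both sides. MLXIP, the Mondo protein of most tissues, had 7.78 FPKM in control against 11.92 FPKM in FZR1 ko, and MLXIPL, the form of liver and fat known as ChREBP, stayed under 1 FPKM with 0.47 and 0.68 FPKM. Of 9 targets 8 were kept, and 4 were at least 1.5-fold higher and 3 lower, beside 18.0% and 17.6% of all genes kept. Their median log2 ratio was 0.43, and without the filter on low values it was 0.04. TXNIP, the glucose-responsive inhibitor of glucose uptake, had 52.28 FPKM in control against 19.68 FPKM in FZR1 ko, with a log2 ratio of -1.37. ARRDC4, its relative, had 5.49 FPKM in control against 1.35 FPKM in FZR1 ko. KLF10, a transcription factor, had 33.8 and 15.85 FPKM. ACACA, which makes the building block of fatty acids, had 1.65 FPKM in control against 6.61 FPKM in FZR1 ko. ELOVL6, a fatty acid elongase, had 3.4 and 9.08 FPKM. ACACB, the second acetyl-CoA carboxylase, had 1.1 and 3.57 FPKM. SCD, a fatty acid desaturase named after its values were seen, had 93.9 and 96.48 FPKM. The transcripts of ACACA, ELOVL6 and ACACB are long, at 10013, 6570 and 9368 bases, and with the trend of length and GC content removed the median of the list was 0.10.

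The corepressor that the MXD proteins and MNT recruit was compared next. All 15 SIN3-HDAC genes were kept, with a median log2 ratio of 0.18, 1 at least 1.5-fold higher and 2 lower, beside 18.0% and 17.6% of all genes kept. With the length and GC trend removed this median was 0.04. SAP30, a bridging subunit, had 14.18 FPKM in control against 26.57 FPKM in FZR1 ko. SIN3A, the scaffold, had 6.18 and 8.71 FPKM. BRMS1L, an accessory subunit, had 3.67 and 4.88 FPKM. ING1, which reads a histone mark, had 35.21 FPKM in control against 16.95 FPKM in FZR1 ko. SAP18, a small subunit, had 88.53 and 53.46 FPKM. BRMS1 had 96.46 and 76.31 FPKM.

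The Polycomb complex of MGA and MAX, PRC1.6, was compared in the same way. All 15 of its genes on the list were kept, 12 above 0 and 3 below, where all genes kept had 6726 and 6812. The median log2 ratio of the list was 0.22, and 3 were at least 1.5-fold higher and 0 lower. The share of higher genes is near the 18.0% of all genes kept, and 17.6% of these were lower. EHMT1, a histone methyltransferase, had 2.37 FPKM in control against 9.74 FPKM in FZR1 ko, with a log2 ratio of 1.67. RNF2, the ubiquitin ligase of the complex, had 4.48 and 8.01 FPKM. EHMT2, the partner of EHMT1, had 30.32 and 47.52 FPKM. The lower genes stayed within 1.5-fold: RYBP had 11.18 and 8.48 FPKM. CBX3, a reader of methylated histone with pseudogene copies that could share its reads, had 192 FPKM in control against 164 FPKM in FZR1 ko. E2F6, a DNA-binding subunit, had 14.72 and 12.64 FPKM.

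Cofactors of MYC differed in both directions. All 15 were kept, with a median log2 ratio of 0.14, and 4 were at least 1.5-fold higher and 4 lower, beside 18.0% and 17.6% of all genes kept. EP400, a chromatin remodeller, had 5.44 FPKM in control against 11.75 FPKM in FZR1 ko. TRRAP, the scaffold of acetyltransferase complexes that MYC recruits, had 3.72 and 7.33 FPKM. The transcripts of EP400 and TRRAP are long, at 12289 and 12675 bases, and with the trend of length and GC content removed the median of the list was -0.01, so its sign turned. CCNT1 and CDK9, the subunits of the elongation factor P-TEFb, were lower together. CCNT1 had 34.43 FPKM in control against 15.87 FPKM in FZR1 ko. CDK9 had 97.76 FPKM in control against 47.36 FPKM in FZR1 ko. ZBTB17 (MIZ1), through which MYC represses genes such as CDKN1A, had 26.58 and 16.17 FPKM.

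Genes that control the turnover of MYC protein had 11 log2 ratios above 0 and 3 below, where all genes kept had 6726 and 6812. Of 15 genes 14 were kept, with a median log2 ratio of 0.20, and 4 were at least 1.5-fold higher and 0 lower, beside 18.0% and 17.6% of all genes kept. HUWE1, a ubiquitin ligase with a transcript of 14731 bases, had 13.76 FPKM in control against 33.44 FPKM in FZR1 ko. GSK3B, the kinase that marks MYC for degradation, had 3.1 and 6.33 FPKM. TRIP12, another ubiquitin ligase, had 9.38 and 15.38 FPKM. FBXW7, the ligase adaptor that recognises this mark and was named after its values were seen, had 2.74 and 2.81 FPKM. STUB1, a ligase that works with chaperones, had 51.33 and 45.27 FPKM. USP37, which removes ubiquitin from MYC, had 3.69 and 3.48 FPKM. CIP2A, which protects MYC from dephosphorylation, had 19.67 and 18.99 FPKM.

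Regulators of MYC transcription and genes beside MYC were compared with MYC itself. All 14 regulators were kept, with a median log2 ratio of 0.22, and 3 were at least 1.5-fold higher and 1 lower, where the background was 18.0% and 17.6%. CDK8, a kinase of the Mediator complex, had 3.51 FPKM in control against 6.98 FPKM in FZR1 ko. TCF7L2, a factor of Wnt signalling, had 0.65 and 1.79 FPKM and passed the filter only through FZR1 ko, where it was higher. E2F1, a cell cycle factor that activates MYC, had 83.4 FPKM in control against 38.77 FPKM in FZR1 ko. CNBP had 127.94 and 114.86 FPKM and CDK7, the kinase of the initiation factor TFIIH, had 25.01 and 23.88 FPKM. Of 6 neighbours of MYC with a value 3 were kept, all with a log2 ratio above 0, where all genes kept had 6726 above and 6812 below, and 2 of them were at least 1.5-fold higher, beside 18.0% of all genes kept. CCAT1, a long noncoding RNA gene upstream of MYC, had 11.98 FPKM in control against 59.0 FPKM in FZR1 ko, with a log2 ratio of 2.21. PVT1, the long noncoding RNA gene downstream of MYC, had 2.67 FPKM in control against 7.64 FPKM in FZR1 ko, with a log2 ratio of 1.24. CYRIB, a protein-coding gene farther downstream, had 13.99 and 21.12 FPKM. CASC11, whose start lies close to that of MYC, had 0.88 and 0.69 FPKM, and it is not stated whether reads were counted by strand. Without the filter on low values the median of the neighbours was 0.28 in place of 1.24, because the added genes were at or under 1 FPKM.

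MYC stood apart from the other immediate early genes in direction. Of 19 such genes listed without MYC, 17 were kept, all 17 had a log2 ratio below 0 and 16 were lower by 1.5-fold or more, beside 17.6% of all genes kept. Their median log2 ratio was -1.31, where that of MYC was 0.76. EGR1 had 15.42 FPKM in control against 1.57 FPKM in FZR1 ko, FOS had 15.97 and 1.86 FPKM, and FOSB had 10.11 and 1.16 FPKM. Among the genes kept, the log2 ratios nearest to 0 were those of DUSP1, with 120.12 and 83.53 FPKM, MCL1, with 135.31 and 88.82 FPKM, and KLF4, with 16.58 and 8.94 FPKM. This opposite direction is what the network was chosen on, and it is given as a description.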

How the data were processed

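RNAseq of control and FZR1 ko cells was analysed, both treated with cisplatin, with 1 library per condition. The authors sequenced total RNA on a BGISEQ-500 platform, aligned the reads to the hg38 transcriptome with Bowtie2 and RSEM, and deposited FPKM for each Entrez gene ID with 2 decimals. The submitters' processing notes name Trimmomatic 0.36, HISAT2 2.1.0 and Bowtie2 2.2.5 as well. The annotation version is not given in the sources used here. Of 24663 rows, 1630 had no value. Of the 23033 others, 22925 (99.5%) matched a symbol in the RefSeq table of GRCh38.p14, the same build. Depth cannot be read from FPKM, so no interval is given. The columns were matched to the samples by name: one names the FZR1 guide and the drug, and the other, which names only the drug, was taken as control.

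Log2 ratios used a pseudocount of 1 FPKM over genes of at least 1 FPKM in at least 1 library, and were counted at 1.5-fold and 2-fold. The counting was tested on simulated data. The members and lists were chosen with earlier results of these data known, and the lists were written from general knowledge. The named genes are the 10 members, FZR1, 3 textbook targets (CDKN1A, ODC1 and TXNIP), and the 3 genes with the highest and the 3 with the lowest log2 ratio of each list. Cell type markers, FBXW7, SCD, CASC11 and MLXIPL were named outside this rule, after their values were seen. MYCN and TMEM75 were not analysed here. A gene that this rule would name is not reported here. Promoters came from RefSeq, and transcript lengths from the canonical GENCODE 44 transcript, which 97.0% of the genes kept had. The alternatives were other pseudocounts, filters and scalings. Removal of the length and GC trend was added after the data were seen. The work was done in Python 3.11.15 with numpy 2.4.6, pandas 2.3.3 and, for plots, matplotlib 3.10.9.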

Additional observations from a re-analysis of the deposited data

How the results depend on the processing

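No paired analysis was possible because control and FZR1 ko are single libraries, and for the same reason no library was left out. Under 7 alternatives, and for MYC also without a pseudocount, 63 of 64 log2 ratios of single members stayed on their side of 1.5-fold. That of MYC lay between 0.72 and 0.78 and that of MXD1 between -1.95 and -1.33. Alternatives that changed only the filter on low values cannot alter the ratio of a single gene, so these do not count as a check of it. MXD3 was -0.44 with a pseudocount of 5 FPKM, so the members at least 1.5-fold lower numbered 1 in place of 2. MYCL is outside these counts. The median of the members was -0.10 with the length and GC trend removed. Of 98 list medians 94 stayed on their side. The other network genes, which is MLXIP alone, had 0.61 with a pseudocount of 0.1 FPKM and 0.59 rescaled to a sum of 1000000, in place of 0.56. On the same side of 1.5-fold, MLXIP moved further, to 0.30 with the length and GC trend removed and 0.40 with a pseudocount of 5 FPKM. The germline list had 0.59 with a pseudocount of 0.1 FPKM in place of 0.49, and the neighbours of MYC 0.28 without a filter in place of 1.24. Over all genes, 1.5-fold gave 1113 higher and 1238 lower genes with a pseudocount of 5 FPKM (2440 and 2387 as reported), and 2-fold 183 and 270 (919 and 911), while a pseudocount of 0.1 FPKM gave 1460 higher and 1358 lower genes at 2-fold and 2913 and 2914 at 1.5-fold. A larger pseudocount counts fewer genes by its construction. The unknown depth limits low genes such as MYCL most.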

Other observations

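Other E-box factors with the same kind of DNA-binding domain as MYC went in both directions. MITF, known from pigment cells and lysosomal control, had 3.41 FPKM in control against 19.71 FPKM in FZR1 ko, with a log2 ratio of 2.23. TFEB, a regulator of lysosome genes, had 1.84 FPKM in control against 6.42 FPKM in FZR1 ko, with a log2 ratio of 1.39. TFE3, of the same family, had 47.44 and 37.61 FPKM and was the highest of MITF, TFEB and TFE3 in both libraries. USF1 had 52.21 FPKM in control against 30.5 FPKM in FZR1 ko, while its paralog USF2 had 43.71 and 47.85 FPKM. The list of 5 had a median log2 ratio of 0.13, with 2 genes at least 1.5-fold higher and 1 lower, beside 18.0% and 17.6% of all genes kept.

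Of 15 germline genes that PRC1.6 keeps silent, 13 were under 1 FPKM in both libraries, and 4 of these were listed at 0 in both. TDRD9, a germline RNA helicase, had 3.01 FPKM in control against 6.45 FPKM in FZR1 ko, and MEIOC, a meiosis factor, had 2.21 and 2.4 FPKM. CACGTG was found in the promoters of 6 of the 15 genes, beside 8.77% of all genes with a promoter sequence. Without the filter on low values the median log2 ratio of the list was 0.

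Over all protein-coding genes kept with a promoter sequence, the 1224 with CACGTG had a median log2 ratio of 0.07, and the 8314 without it had 0.03. Of the first 19.7% were at least 1.5-fold higher in FZR1 ko and 14.2% lower, and of the second 18.4% and 15.8%.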
